A study of Homo sapiens with 2 samples.

Results

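The immunoglobulin heavy chain locus encodes the larger chain of the B-cell receptor and of antibodies. Among the genes counted by RNA-seq in the Ramos and Ramos640 lines, its rows were taken by name, as all that begin with IGH followed by V, D, J, M, G, A or E, without IGHMBP2, which encodes a helicase and lies elsewhere. This gave 183 of the 37122 rows, of which 135 were variable segments, 27 diversity segments, 9 joining segments and 12 constant genes. Ramos is an established human Burkitt's lymphoma (BL) cell line of B-cell origin. Ramos640 was derived from it by culture with rising concentrations of rituximab, an antibody against CD20 on B cells, in the presence of 20% normal human serum, a source of complement, and it was kept on rituximab at 640 (mg/mL in the sample labels, μg/mL in the study's methods) with the same serum every 21 days. Both lines were otherwise grown in the same medium. RNA from 3 passages of each line was pooled into 1 library, so no difference has a replicate check and the resistance cannot be told apart from anything else that separates the cultures. In bulk RNA, fewer cells with a transcript and less of it per cell cannot be told apart either. The libraries held 38030090 reads in Ramos and 30871826 in Ramos640.

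A B cell builds its heavy chain gene by joining 1 variable (V), 1 diversity (D) and 1 joining (J) segment, and the DNA between the joined segments is removed from that chromosome. The V promoter then comes near the enhancers of the locus, and the transcript is spliced to the μ constant gene (IGHM) or, by alternative splicing, to the δ constant gene (IGHD). Class switching replaces μ by a γ, α or ε gene, and BL cells typically stay with surface IgM. All cells of a clone carry the same V(D)J joint, so a single V segment usually dominates in a B-cell line. In BL the locus is also a frequent partner of the MYC translocation.

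In the reference, 170 of the 183 rows lay on chromosome 14 of GRCh37 from 106053226 to 107288019, a span of 1235 kb, all on the minus strand. The constant genes lie at the low end and the V segments at the high, telomeric end, so that transcription runs from V toward the constant genes. The other 13 rows were copies elsewhere, 12 V segments and the ε pseudogene IGHEP2 on chromosome 9. The V row with the most reads in both libraries was IGHV4-34 (positions 106829594 to 106830076, annotated as a V gene of 2 exons with 400 exon bases). The 120 bases before its annotated start are shown with those of 3 other V rows with reads, because the octamer ATGCAAAT, given in capitals, is the textbook element of V promoters. All are read 5′ to 3′ on the minus strand of GRCh37.
IGHV4-34, chr14:106830077-106830196: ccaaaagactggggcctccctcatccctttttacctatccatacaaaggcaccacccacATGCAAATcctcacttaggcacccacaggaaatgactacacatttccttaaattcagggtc
IGHV4-61, chr14:107095663-107095782: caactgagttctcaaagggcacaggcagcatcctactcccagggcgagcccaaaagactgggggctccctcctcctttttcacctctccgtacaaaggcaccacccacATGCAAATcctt
IGHV1-69, chr14:107170429-107170548: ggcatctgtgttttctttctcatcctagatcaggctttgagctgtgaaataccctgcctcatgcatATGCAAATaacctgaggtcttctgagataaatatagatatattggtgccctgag
IGHV7-34-1, chr14:106833665-106833784: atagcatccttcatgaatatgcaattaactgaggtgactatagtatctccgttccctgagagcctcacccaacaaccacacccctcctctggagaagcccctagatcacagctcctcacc
An exact octamer on either strand stood within 250 bases before the annotated start of 68 of the 135 V rows (50.4%), against 1.56% of 20176 protein-coding genes in windows of the same length. It was present before 12 of the 16 V rows with at least 10 reads and before 56 of the 119 others. IGHV7-34-1, the V row with the second highest level, had no exact match in its window. The share was 84.3% for the 51 rows annotated as V genes and 29.8% for the 84 annotated as pseudogenes. Annotated starts of V rows differ in how much sequence before the coding part they include, so a missing match says only that these letters are not in that window. In the same way, a match says only that they are in the window, not that they lie in a promoter.

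At the other end of a V segment lies the recombination signal, a heptamer and a nonamer (capitals) around a spacer, at which the recombinase cuts. It is shown for the same V rows, because it is cut away from a V segment that has been joined.
IGHV4-34, chr14:106829553-106829591: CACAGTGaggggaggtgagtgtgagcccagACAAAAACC
IGHV4-61, chr14:107095085-107095123: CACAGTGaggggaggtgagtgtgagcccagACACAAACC
IGHV1-69, chr14:107169890-107169928: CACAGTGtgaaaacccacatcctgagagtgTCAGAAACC
IGHV7-34-1, chr14:106833192-106833230: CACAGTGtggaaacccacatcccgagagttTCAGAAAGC
The heptamer CACAGTG lay wholly within the first 10 bases after the annotated end of 56 of the 135 V rows (41.5%), against 0.099% of protein-coding genes. The only J row with reads was IGHJ6, and its 61 bases encode the end of the variable domain.
IGHJ6, chr14:106329408-106329468: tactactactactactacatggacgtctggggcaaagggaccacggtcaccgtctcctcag

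The 183 heavy chain rows made up 0.238% of all reads in Ramos and 0.376% in Ramos640 (90383 and 116160 reads). These shares leave out a row named IGH for the whole locus, with 94461 and 110800 reads, described below. Most members had few or no reads. No read was counted in either library for 130 rows, and 31 had 1 to 9 reads in the 2 libraries together. This left 22 rows (12%) with at least 10 reads, against 50.6% of all rows in the table. Fold changes were computed for these 22 alone. A count of 0 allows up to 3 reads, or 0.0789 CPM (reads scaled to the total of the library) in Ramos and 0.0972 CPM in Ramos640. Reads were scaled by size factors (1.14 for Ramos and 0.876 for Ramos640, by the median-of-ratios method) and 1 was added before the log2 ratio of Ramos640 to Ramos, here called the log2 fold change. Each 95% interval rests on how a row's reads split between the libraries (exact Clopper-Pearson) and covers counting error only. By a 1.5-fold criterion, the study's own without its test, 7 of the 22 rows were higher in Ramos640 and 5 were lower. The corresponding shares of all 18778 rows at this depth were 14.6% higher and 17.3% lower. The median log2 fold change was 0.34 over the 22 members and -0.015 over all such rows. Among the members, 8 intervals lay above 0, 4 lay below 0 and 10 included 0. The same count over all rows is not given here. Where reads are many, such an interval can exclude 0 at a small difference.

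**Figure D1:**
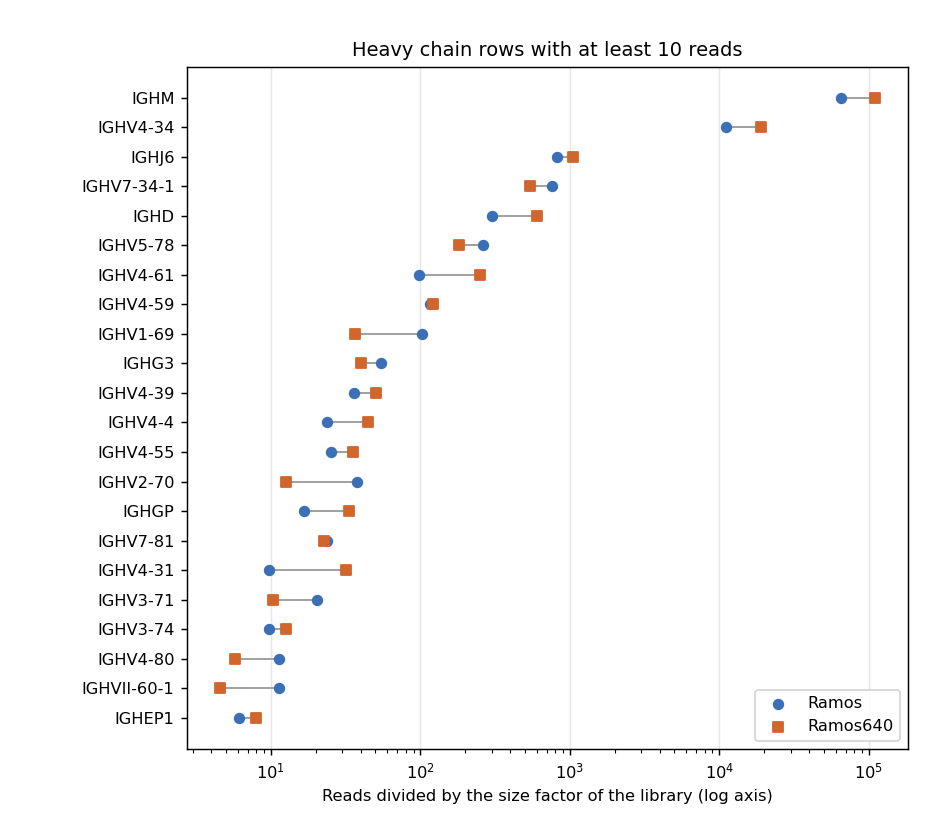
Reads divided by the size factor of the library (horizontal log axis) for the 22 heavy chain rows with at least 10 reads, in Ramos (circles) and Ramos640 (squares), with 1 library per line. IGHM and IGHV4-34 stand above all other rows in both libraries, and IGHJ6, IGHV7-34-1 and IGHD follow.

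The constant genes were represented almost entirely by IGHM. Reads on IGHM numbered 74596 in Ramos and 96811 in Ramos640, or 65367 and 110480 after division by the size factors. The log2 fold change was 0.76 with an interval from 0.74 to 0.77, a fold of 1.69. IGHM was 36th of all rows by reads in Ramos and 23rd in Ramos640. Of the reads on constant rows it held 99.4% in each library. IGHD, which encodes the δ chain of surface IgD and is not a D segment, had 344 and 525 reads. Its log2 fold change of 0.99 (interval from 0.79 to 1.19) was the highest among the constant genes. IGHD nevertheless made up only 0.459% of the IGHM and IGHD reads in Ramos (95% interval from 0.412 to 0.51) and 0.539% in Ramos640 (from 0.494 to 0.587). The intervals of the shares overlap, which does not show that the shares were equal. The fold change interval of IGHD lay above that of IGHM. Divided also by exon length in kilobases (RPKM), IGHM stood at 1048 in Ramos and 1676 in Ramos640, against 5.43 and 10.2 for IGHD.
The rows of switched isotypes, counted with their pseudogenes, had few reads. The 10 rows, 3 of them pseudogenes with 27 and 39 reads, held 99 reads in Ramos and 87 in Ramos640. That was 0.132% (interval from 0.107 to 0.161) and 0.0893% (from 0.0715 to 0.11) of the constant reads. IGHG3, the γ3 gene and the first of the γ genes after IGHD, had 62 and 35 of these reads, with a log2 fold change of -0.43 whose interval from -1.09 to 0.18 included 0. The γ pseudogene IGHGP had 19 and 29 reads (log2 fold change 0.95, interval from 0.11 to 1.91). IGHEP1, an ε pseudogene, had 7 reads in each library. The γ genes IGHG1 (5 and 1 reads), IGHG2 (3 and 1) and IGHG4 (1 and 2) did not reach 10 reads. The same was true of the α genes IGHA1 (1 and 4) and IGHA2 (0 and 5) and of the copy IGHEP2 (1 and 3). IGHE, the ε gene, had no read in either library. The γ genes are close copies of each other, and the sources used here do not say where a read matching more than 1 of them was counted, so the split among them is uncertain.

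IGHV4-34, the V row that stood above all others, had 12600 reads in Ramos and 16599 in Ramos640. Its log2 fold change was 0.78 (interval from 0.75 to 0.81), beside 0.76 for IGHM. The proportion of the V gene to the constant gene differed by less than counting error between the libraries, with IGHM at 85.5% of their sum in Ramos (interval from 85.3 to 85.8) and 85.4% in Ramos640 (from 85.2 to 85.6). Per kilobase of exon IGHV4-34 stood at 828 RPKM and 1344 RPKM. It held 87.5% of all V reads in Ramos (interval from 86.9 to 88) and 93.1% in Ramos640 (from 92.8 to 93.5). The intervals do not overlap. The summed reads of the other 134 V rows were 1808 and 1221 (log2 fold change -0.19, interval from -0.29 to -0.08). The summed V reads, with a log2 fold change of 0.69, thus followed IGHV4-34, and the sum without it had the opposite sign.
Both lines had reads on the same J segment. IGHJ6 had 936 reads in Ramos and 915 in Ramos640, while the other 8 J rows had none in either library. Its log2 fold change was 0.35 (interval from 0.22 to 0.48), smaller than that of IGHV4-34. Of the reads on IGHJ6 and IGHV4-34 together, IGHJ6 held 6.91% in Ramos (interval from 6.49 to 7.36) and 5.22% in Ramos640 (from 4.9 to 5.56), and these intervals do not overlap. No D segment could be read from the counts. Of the 27 D rows 25 had no reads, and IGHD3-9 and IGHD6-6 had 1 read each in Ramos640. D segments are short and lose bases at their ends when joined, so a read of a joined gene need not be counted on a D row.

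Near-identical V genes can share reads, so each V row was aligned to IGHV4-34 over the reference exons. The 8 other rows of the IGHV4 family were between 86.6% and 93% identical to it, while the 126 rows of other families had a median identity of 61% (from 50.8% to 81.6%). The highest value of the other families, that of IGHVII-31-1, rests on only 37 aligned bases. Of the IGHV4 rows, 7 of 8 had at least 10 reads, compared with 8 of 126 rows of the other families. The 5 V rows nearest by identity, IGHV4-59 (93%), IGHV4-4 (92.8%), IGHV4-61 (92.4%), IGHV4-55 (92%) and IGHV4-39 (90.4%), were all among them. Ranked by the longest unbroken stretch of shared bases, 4 of the 5 nearest had at least 10 reads. The exception was IGHV4-28, with a stretch of 55 bases. The longest stretch that IGHV4-59 and IGHV4-61 each shared with IGHV4-34 was 77 bases, and it is shown because a read inside it fits all 3 genes equally well.
Shared by IGHV4-34, IGHV4-59 and IGHV4-61: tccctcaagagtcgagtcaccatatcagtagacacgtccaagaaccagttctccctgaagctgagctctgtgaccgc
The IGHV4 rows other than IGHV4-34 together had 365 and 479 reads. The log2 fold change of this sum was 0.77 (interval from 0.57 to 0.97), next to 0.78 for IGHV4-34. They were 2.82% of all IGHV4 family reads in Ramos (interval from 2.54 to 3.11) and 2.8% in Ramos640 (from 2.56 to 3.06). This grouping by family was made after the values were seen, and the sum rests in part on IGHV4-61, without which its log2 fold change was 0.40. Within the family the rows did not keep a fixed proportion. IGHV4-61 had 111 and 221 reads (log2 fold change 1.37, interval from 1.04 to 1.72), and its share of the reads on it and IGHV4-34 was 0.873% (from 0.719 to 1.05) in Ramos and 1.31% (from 1.15 to 1.5) in Ramos640. IGHV4-59 had 132 and 107 reads, and the corresponding share was 1.04% (from 0.868 to 1.23) and 0.64% (from 0.525 to 0.773). The 2 shares thus moved in opposite directions, each beyond its counting interval. The log2 fold change of IGHV4-59 itself was 0.078 with an interval from -0.30 to 0.46, and it was -0.0021 when scaled to total counts.
IGHV4-31, with 11 and 28 reads, had a log2 fold change of 1.63 (interval from 0.68 to 2.88), above that of IGHV4-61, but with a pseudocount of 10 it was 1.10 and IGHV4-61 was higher at 1.29. IGHV4-4 had 27 and 39 reads (0.88, from 0.17 to 1.68). The intervals of IGHV4-39 (41 and 44 reads), IGHV4-55 (29 and 31) and IGHV4-80 (13 and 5) included 0, and IGHV4-80 was the only 1 of the 7 rows with a negative log2 fold change (-0.89), past the 1.5-fold criterion. IGHV4-28 had 1 and 4 reads. Whether reads of the IGHV4-34 transcript were counted on these rows was not tested, since only counts per row were used.

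**Figure D2:**
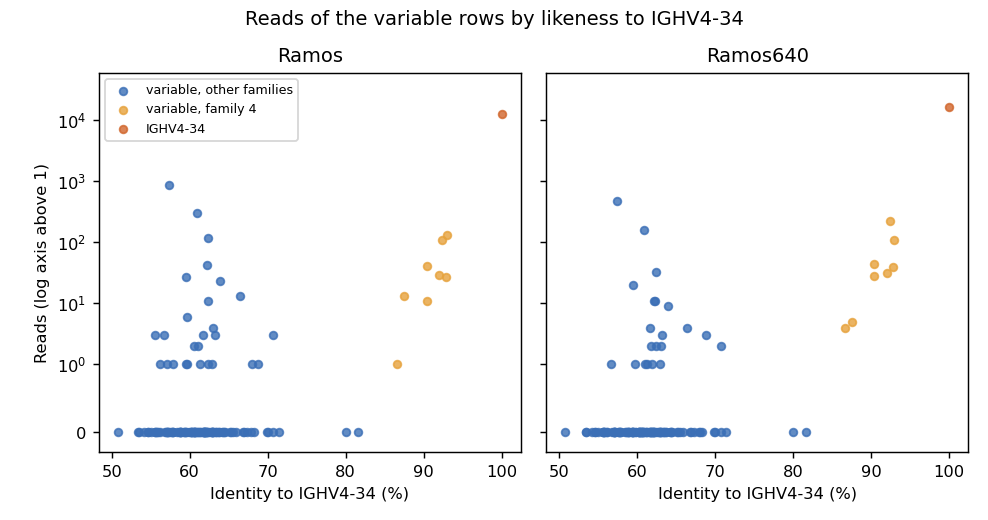
Reads (vertical axis, logarithmic above 1) of the 135 V rows against their identity to IGHV4-34 over the reference exons in percent, for Ramos (left) and Ramos640 (right). The IGHV4 rows, at 86.6% to 93%, all had reads in both libraries, whereas most rows of other families lie at 0.

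The V rows of other families had, in sum, fewer reads in Ramos640. Summed over these 126 rows, reads numbered 1443 and 742 (log2 fold change -0.58, interval from -0.71 to -0.45), and 7 of the 8 with at least 10 reads had a negative log2 fold change. IGHV7-34-1, a pseudogene 3.15 kb upstream of IGHV4-34 on the same strand, was the most abundant of them, with 869 and 472 reads. Its log2 fold change was -0.50 (interval from -0.66 to -0.34), opposite to that of its neighbour. Of the reads on the 2 rows, IGHV7-34-1 held 6.45% in Ramos (interval from 6.04 to 6.88) and 2.76% in Ramos640 (from 2.52 to 3.02). Without IGHV7-34-1 the log2 fold change of the summed other families was -0.71.
IGHV5-78, a pseudogene near the telomeric end of the locus, had 300 and 159 reads (log2 fold change -0.53, interval from -0.82 to -0.25). Neither of these pseudogenes passed the 1.5-fold criterion, although IGHV5-78 did when scaled to total counts (-0.61). IGHV1-69 had 118 and 32 reads and IGHV2-70 had 43 and 11, and these V genes passed it, at -1.48 (interval from -2.11 to -0.93) and -1.51 (from -2.69 to -0.61). The next row along the locus, the pseudogene IGHV3-71, had 23 and 9 reads and passed it as well (-0.91), with an interval from -2.27 to 0.19. From IGHV1-69 to IGHV3-71 is 13.9 kb, and these 3 neighbours, grouped after their values were seen, together had 184 reads in Ramos and 52 in Ramos640. IGHVII-60-1 (13 and 4 reads, -1.15, past the criterion), IGHV7-81 (27 and 20) and IGHV3-74 (11 and 11) had intervals that included 0, and IGHV3-74 was the only 1 of the 8 with a positive log2 fold change (0.35).

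The reads of other families lay almost entirely on 1 side of IGHV4-34, a split of the locus made after the values were seen. On the telomeric side, upstream of it, lay 69 V rows, and on the side toward the D, J and constant segments lay 53. Of the 64 upstream rows outside the IGHV4 family, 23 had reads, with 1432 in Ramos and 733 in Ramos640. Of the 50 such rows on the other side only 3 had reads, 5 in each library in all, and none reached 10. IGHV4 rows had reads on both sides, with 326 and 408 reads over 5 rows upstream and 39 and 71 reads over 3 rows downstream, where IGHV4-31 and IGHV4-4 lie. The 12 V copies outside the locus had 6 reads in Ramos and 4 in Ramos640. By annotation, the 84 V pseudogenes had 1263 and 688 reads and the 51 V genes 13145 and 17132, nearly all of the latter on IGHV4-34.

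**Figure D3:**
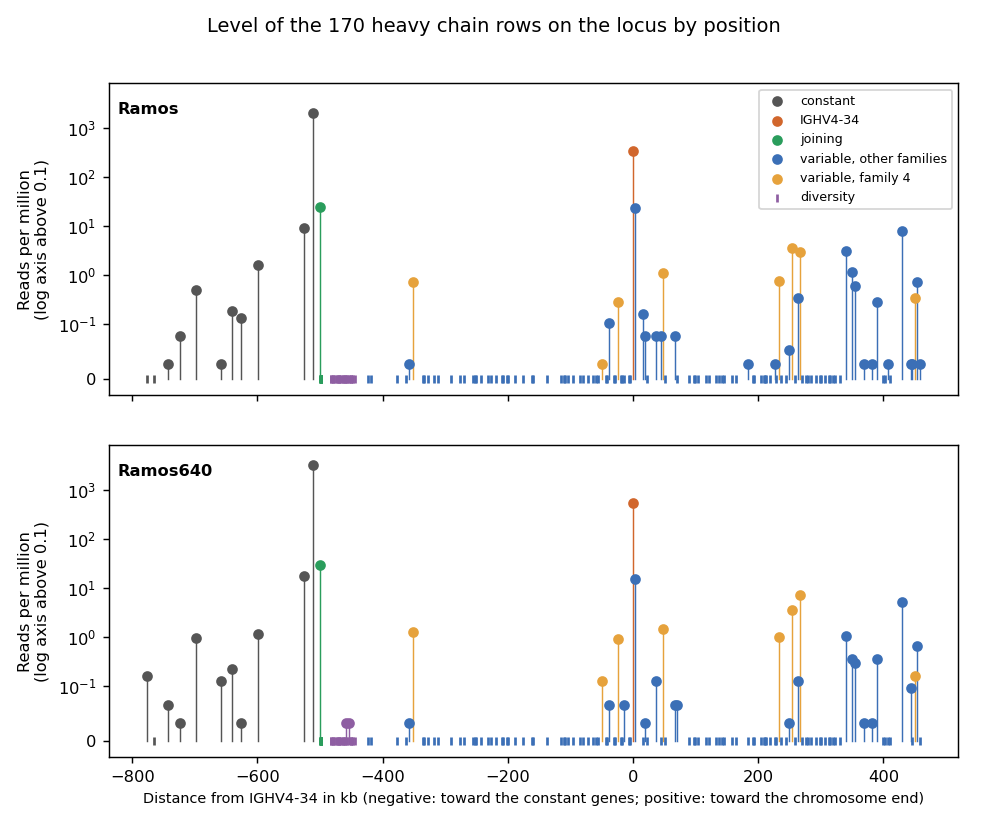
CPM (vertical axis, logarithmic above 0.1) of the 170 heavy chain rows on the locus against their distance in kb from IGHV4-34, with Ramos above and Ramos640 below. Ticks at 0 are rows without reads. Between the D segments and IGHV4-34, IGHV4-31 and IGHV4-4 stand above the few other rows with reads.

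Among the genes whose products pair with, fold or carry the heavy chain, CD79B, IGLL5, HSPA5, HSP90B1 and DERL3 were higher in Ramos640 by the 1.5-fold criterion, and CD79A, MZB1, PDIA4 and IGJ did not pass it. The λ light chain constant rows, whose product pairs with the μ chain in these cells, had 74014 and 98849 reads (log2 fold change of the sum 0.80, interval from 0.78 to 0.81), and the λ joining rows had a smaller value (0.33), as IGHJ6 did. All 9 genes of a list of chain partners had a positive log2 fold change, with a median of 0.64, and 5 of 9 were past the criterion on the higher side, beside 14.6% of all rows. CD79A and CD79B, the signalling chains that carry IgM to the surface, had 25460 and 29007 reads (0.57) and 69495 and 82890 reads (0.64). HSPA5, the chaperone BiP that holds free heavy chains in the endoplasmic reticulum, had 21686 and 28147 reads (0.76), HSP90B1 had 7195 and 10902 (0.98) and DERL3 had 616 and 844 (0.83). IGLL5 (0.98) shares exons with a λ constant gene, so its reads are uncertain. IGJ, the chain that joins secreted IgM units, had 54737 and 52500 reads, and its log2 fold change of 0.32 was the lowest of the list.
The regulators of heavy chain transcription and splicing were mixed. Of 21 genes 4 were higher and 2 were lower by 1.5-fold, beside 14.6% and 17.3% of all rows, and the median log2 fold change was -0.14. POU2F2, which encodes the octamer factor Oct-2, had 2921 and 4245 reads (0.92, interval from 0.85 to 0.99). Its coactivator gene POU2AF1 had 14993 and 9643 reads (-0.26), and POU2F1, for the ubiquitous octamer factor Oct-1, had 1589 and 1116 (-0.13). XBP1, a factor of secretory cells, had 18028 and 22624 reads (0.71). PRDM1, which drives plasma cell differentiation, had 16 and 31 (1.28, from 0.42 to 2.30), and HNRPLL, a splicing regulator of plasma cells, had 16 and 25 (0.98). PAX5, a factor of B-cell identity, had 4624 and 2039 reads (-0.80), and RUNX1 had 561 and 242 (-0.83). ELL2, which favours the secreted form of the heavy chain, had 126 and 85 reads with an interval that included 0. The membrane and secreted forms of IGHM cannot be told apart in counts per gene.
The listed genes beside or within the locus had log2 fold changes of both signs. Of 18 genes at the end of chromosome 14, 13 had at least 10 reads, with 1 higher and 5 lower by 1.5-fold (14.6% and 17.3% of all rows). The higher gene, ELK2AP, and 1 of the lower genes, KIAA0125, lie within the locus and not beside it. The median was -0.073, with 5 positive and 8 negative values. KIAA0125, a non-coding RNA that overlaps 26 of the 27 D rows on the opposite strand (106345834 to 106398502), had 932 and 420 reads (-0.77, interval from -0.94 to -0.60). The use of strand in counting is not given, so its reads and those of the D rows cannot be told apart. JAG2, a Notch ligand gene, had 115 and 22 reads (-1.96), and CRIP1 had 639 and 217 (-1.17). PACS2 had 1047 and 1118 reads (0.48, from 0.35 to 0.60). MTA1 (3951 and 3412 reads, 0.17) and AKT1 (4599 and 3694, 0.065) were close to 0, and ELK2AP, a pseudogene between the constant genes, had 5 and 12 reads (1.45, from 0.036 to 3.50).

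**Figure D4:**
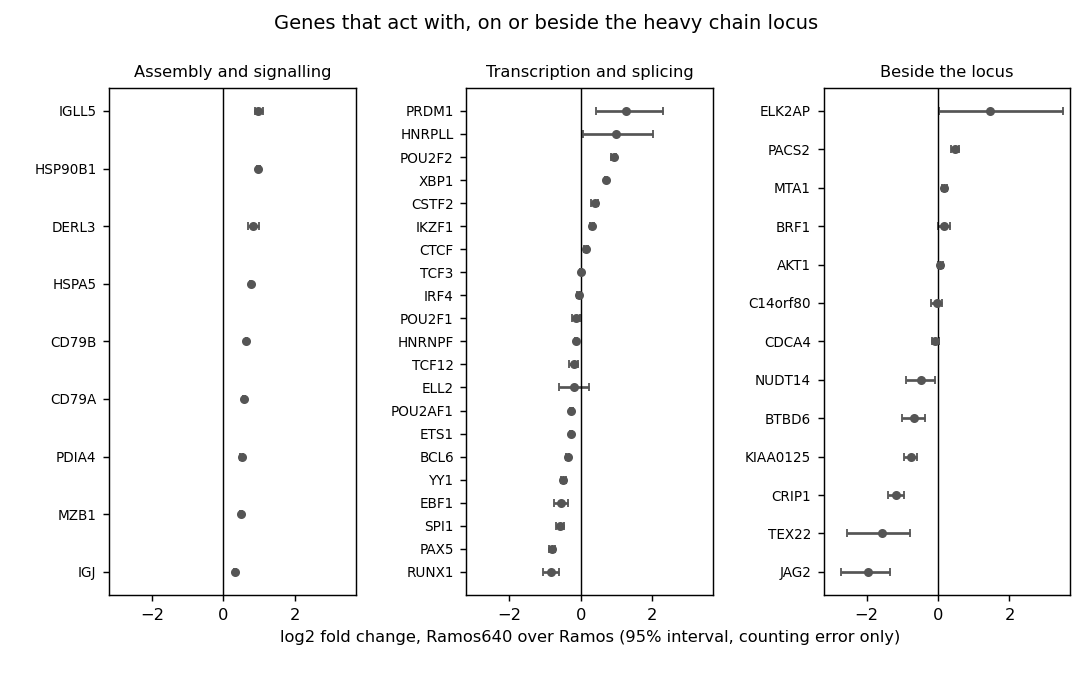
Log2 fold change of Ramos640 over Ramos (horizontal axis, bars for the 95% counting interval) of the genes with at least 10 reads in 3 lists. The lists are those of chain assembly and signalling, of transcription and splicing, and of genes beside or within the locus. All 9 points of the first list lie above 0, while the other lists spread to both sides.

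Genes of like GC content were set beside the main rows, and the part of GC content in the differences was not tested. The 958 protein-coding genes with at least 100 reads and a transcript GC content within 2 percentage points of IGHM (60.3%) had a median of 0.19, compared with 0.76 for IGHM. For IGHV4-34 (56.8%) the median was 0.17 over 1159 genes, and for IGHV1-69, at the same GC content and a log2 fold change of -1.48, it was 0.18. Of the 1362 rows with at least 10000 reads, 50 had a larger log2 fold change than IGHM and 43 a larger one than IGHV4-34.
The B-cell markers MS4A1, CD79A, CD79B, PAX5 and CD22 had between 1904 and 82890 reads in each library. MS4A1, which encodes the rituximab target CD20, was lower in Ramos640 (9654 and 1904 reads, log2 fold change -1.96). The germinal centre markers MME, BCL6, CD38 and MYC had between 3775 and 21564. Of 5 T cell markers, CD3D and CD2 had no reads and the summed reads were 31 and 90, with 1 and 31 on CD3E. Summed reads were 5 and 15 over 4 monocyte markers and 14 and 3 over 3 natural killer cell markers. Of 5 plasma cell markers SDC1 had 1 and 3 reads, PRDM1 and XBP1 were higher by the 1.5-fold criterion, and IGJ and IRF4 (7255 and 5369 reads, -0.053) did not pass it. The part of other cells in the differences was not tested.

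**Figure D5:**
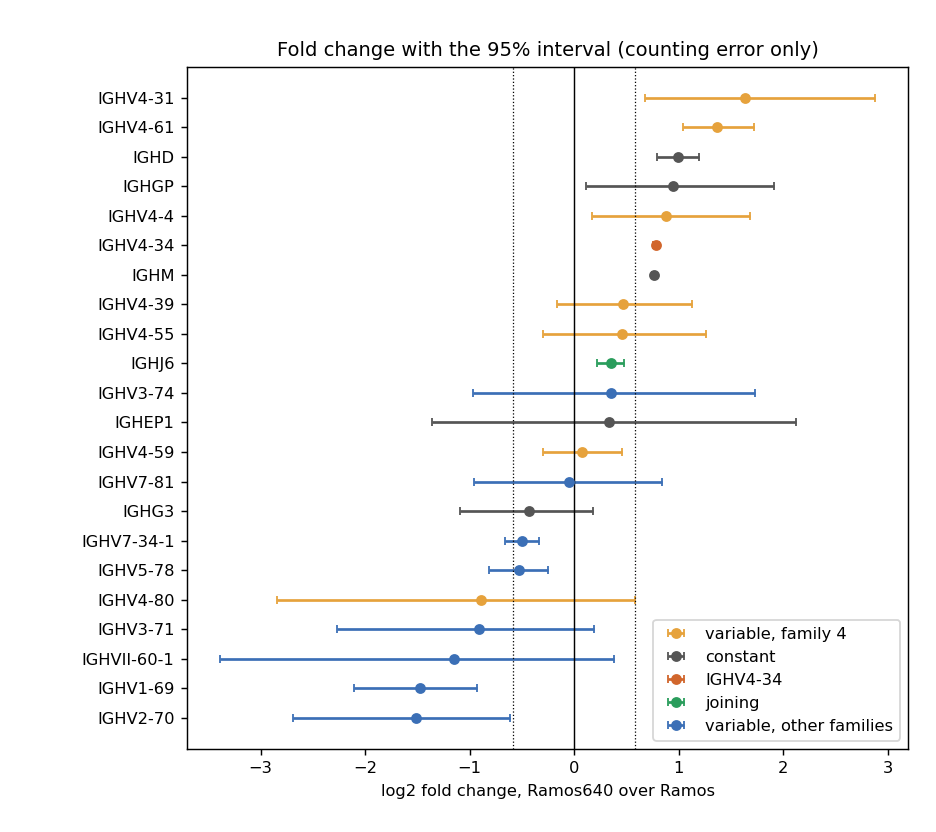
Log2 fold change of Ramos640 over Ramos (horizontal axis) of the 22 heavy chain rows with at least 10 reads, with 95% counting intervals, and dotted lines at the 1.5-fold criterion. The IGHV4 rows lie mostly above 0 and the V rows of other families mostly below, from 1.63 for IGHV4-31 to -1.51 for IGHV2-70.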

How the data were processed

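Total RNA was sequenced from Ion libraries. The authors trimmed adaptors, mapped the reads to GRCh37 with MapSplice and deposited read counts per gene, not normalized. The counting program, its annotation, the use of strand and the handling of reads that fit several genes are not given in the sources used here. Genes were named by rule: all constant rows, V rows with at least 100 reads, the 5 largest differences each way, the 5 V rows nearest to IGHV4-34 and, of each list, its extremes and the genes it introduces. Other members at 10 reads or more, and some list genes, were named after their values were seen. The members and lists were chosen with earlier results of these data known.

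Scaling used size factors by the median of ratios, a pseudocount of 1 and a minimum of 10 reads. Intervals are Clopper-Pearson at 95% (scipy 1.17.1), for counting error only. With 1 library per line no test was run. TMM factors came from edgeR 4.0.16. Coordinates, exons and sequences came from the GRCh37 genome with GENCODE v44lift37, by symbol for 182 members and by an older symbol, through the RefSeq table, for 1. Identity was that of a global alignment (Biopython 1.88), with free end gaps. Size factors, fold changes and intervals were checked on counts simulated with counting error only, and the other steps were not. Single values of some listed genes are not reported here.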

Additional observations from a re-analysis of the deposited data

Results flagged for a closer look

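The table also holds a row named IGH for the whole locus, which the name rule does not take and which no comparison uses. Its reads, 94461 in Ramos and 110800 in Ramos640, were far above the limit that a count of 0 allows, with a log2 fold change of 0.61. It equalled 105% of the summed reads of the 170 members on the locus in Ramos and 95.4% in Ramos640, so it is not their total. How reads were divided between this row and the segment rows is not given in the sources used here.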

How the results depend on the processing

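Counts of members by the 1.5-fold criterion depended on the minimum of reads. With at least 1 read 19 members were higher and 17 lower (10 and 15 of the V rows), and with at least 100 reads 4 and 1 (2 and 1 of the V rows), beside 7 and 5 (4 and 5) with at least 10. A pseudocount of 10 left 2 lower members, both V rows, and both total counts gave 6, with IGHV5-78 added. As shares of the V reads, 2 V rows were higher and 9 lower. Shares of all rows are given here only for the main setting. The counts under the alternatives therefore have no such share beside them. Total counts gave a log2 fold change of 0.68 for the constant and 0.61 for the V sum, and total counts without immunoglobulin rows 0.69 and 0.62. Without IGHV4-34 the V sum was -0.19, and without IGHV4-61, an alternative chosen after seeing the data, the IGHV4 sum was 0.40. Of 110 values for the 22 single rows under 5 alternatives, 106 stayed inside the counting interval of the row, and the other 4 were those of IGHM and IGHV4-34 under both total counts. IGHV4-59 alone changed sign. The scalings moved the median of all rows by -0.0097, -0.08 and -0.07. No paired analysis was possible because each line had 1 library, and for the same reason no replicate could be left out.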

Other observations

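Of 15 genes of class switching and somatic mutation, which act on this locus, 1 (LIG4) was lower in Ramos640 by the 1.5-fold criterion and 0 were higher, beside 17.3% and 14.6% of all rows. All had at least 10 reads, and 12 had a negative and 3 a positive log2 fold change, with a median of -0.34. LIG4, a ligase of DNA end joining, had 681 and 270 reads (-0.95, from -1.16 to -0.75). POLH, the error-prone polymerase eta, had 7159 and 3995 (-0.46) and UNG, the uracil glycosylase, had 4825 and 3167 (-0.23). APEX1, an endonuclease of base excision repair, was the highest of the list, with 13233 and 14549 reads (0.52).

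The κ light chain rows differed from the λ rows. The 86 IGKV rows together had 1278 and 1015 reads, with a log2 fold change of 0.049 (interval from -0.072 to 0.17), and the 5 IGKJ rows had 337 and 268, beside the 5 reads of IGKC in each library. The IGLV rows had 38479 and 54064 reads (0.87).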
